A study of Mus musculus with 6 samples.

Results

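The Wnt genes described here are 40 genes of a signalling pathway between cells: 19 Wnt ligands, the 10 Frizzled receptors, 8 secreted inhibitors (Dkk1 to Dkk4, Sfrp1, Sfrp2, Sfrp4 and Sfrp5), and the co-receptors Lrp5 and Lrp6 with the intracellular inhibitor Axin2. They were listed by name as genes of this pathway, with earlier results of these data known. A gene was taken as measured where at least 3 cytosines, each read at least 10 times in each of the 6 libraries, lay in the gene or within 1 kb of either end. By that rule 38 of the 40 genes were measured, among 28752 measured of 49943 annotated genes. Wnt16 and Dkk4 held no such cytosine and are not described further.

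DNA methylation of mouse male germ cells was read by reduced representation bisulfite sequencing (RRBS), which cuts DNA at fixed sites and so reads mostly CpG-rich DNA. Bisulfite turns unmethylated cytosine into a base read as T, and methylated cytosine is still read as C. The 3 Control and 3 CSDS libraries come from control mice and from mice put through chronic social defeat stress, that is repeated attack by a dominant animal. The series asks how such stress relates to methylation in the germ line. The labels give no strain, genotype, age, length of stress or time of collection for either group, and they do not say how the cells were isolated, whether libraries come from separate animals or whether animals were pooled. The p-values given below therefore measure only the spread between these libraries.

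Wnt ligands are secreted, lipid-carrying proteins that bind a Frizzled receptor together with Lrp5 or Lrp6. Binding stops a complex built on Axin from having beta-catenin destroyed, and beta-catenin then joins TCF and LEF factors to turn on target genes, Axin2 among them as a feedback inhibitor. Dkk proteins block the Lrp co-receptors, and Sfrp proteins bind Wnt ligands outside the cell. In the testis, Wnt signals pass between Sertoli cells and germ cells and bear on the upkeep of spermatogonia.

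Most starts of these genes that have a reference sequence lie in CpG-rich DNA. The sequences of 6 starts, not all of them CpG-rich, are shown because results below refer to their genes. The sequences are RefSeq promoters of GRCm38.p6, each 300 bases, from 250 bases before the transcription start to 50 after it, 5′ to 3′ on the gene's own strand, with each CpG in capitals. Among members with such a sequence, Wnt5b (chr6:119544298-119544597 on the minus strand) had the lowest level around its start, and Dkk1 (chr19:30549447-30549746 on the minus strand) had the highest. Dkk1, Fzd1 (chr5:4758167-4758466 on the minus strand) and Wnt10b (chr15:98778101-98778400 on the minus strand) had the largest differences there between CSDS and Control. Wnt9b (chr11:103749772-103750071 on the minus strand) and Axin2 (chr11:108920099-108920398 on the plus strand) were added after their values were seen, the first for the smallest p of any member tile and the second as a target gene of the pathway.
Wnt5b: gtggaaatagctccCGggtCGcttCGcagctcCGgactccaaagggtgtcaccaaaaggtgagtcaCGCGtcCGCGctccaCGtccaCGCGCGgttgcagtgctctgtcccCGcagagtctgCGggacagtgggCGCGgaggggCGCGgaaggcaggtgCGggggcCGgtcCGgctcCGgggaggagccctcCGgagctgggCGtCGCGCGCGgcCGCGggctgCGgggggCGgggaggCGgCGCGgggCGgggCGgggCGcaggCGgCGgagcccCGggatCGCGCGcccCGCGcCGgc
Wnt10b: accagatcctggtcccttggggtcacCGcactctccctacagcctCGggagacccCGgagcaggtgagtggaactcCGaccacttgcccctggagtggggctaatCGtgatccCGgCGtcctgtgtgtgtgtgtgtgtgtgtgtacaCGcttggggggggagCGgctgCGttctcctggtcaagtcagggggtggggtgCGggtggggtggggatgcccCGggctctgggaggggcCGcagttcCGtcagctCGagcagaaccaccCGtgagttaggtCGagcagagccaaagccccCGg
Wnt9b: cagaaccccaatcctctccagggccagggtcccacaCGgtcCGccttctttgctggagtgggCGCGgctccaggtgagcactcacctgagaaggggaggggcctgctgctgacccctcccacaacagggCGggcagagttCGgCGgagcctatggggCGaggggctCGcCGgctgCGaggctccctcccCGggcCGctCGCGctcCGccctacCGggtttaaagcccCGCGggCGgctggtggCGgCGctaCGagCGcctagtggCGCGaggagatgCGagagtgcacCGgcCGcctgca
Fzd1: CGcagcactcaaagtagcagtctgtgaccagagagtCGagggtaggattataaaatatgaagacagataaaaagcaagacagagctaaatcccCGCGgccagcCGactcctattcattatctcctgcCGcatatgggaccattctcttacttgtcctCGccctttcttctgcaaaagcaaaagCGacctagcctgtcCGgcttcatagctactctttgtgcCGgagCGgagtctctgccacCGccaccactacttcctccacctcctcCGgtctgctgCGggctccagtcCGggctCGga
Dkk1: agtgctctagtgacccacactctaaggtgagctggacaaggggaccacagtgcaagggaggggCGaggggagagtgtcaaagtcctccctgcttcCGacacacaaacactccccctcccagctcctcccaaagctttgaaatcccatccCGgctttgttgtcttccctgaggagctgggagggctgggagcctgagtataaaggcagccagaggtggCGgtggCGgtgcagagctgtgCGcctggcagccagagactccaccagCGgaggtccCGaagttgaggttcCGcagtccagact
Axin2: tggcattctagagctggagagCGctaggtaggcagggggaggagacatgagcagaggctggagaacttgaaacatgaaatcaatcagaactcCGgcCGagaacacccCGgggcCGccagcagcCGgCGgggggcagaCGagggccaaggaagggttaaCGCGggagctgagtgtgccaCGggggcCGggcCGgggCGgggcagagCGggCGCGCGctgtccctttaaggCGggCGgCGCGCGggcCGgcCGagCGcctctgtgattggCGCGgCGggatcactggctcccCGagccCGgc

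These sequences differ in how many places methylation could be read. The Wnt5b sequence holds 47 CpGs, that of Wnt9b 29, that of Axin2 31, that of Wnt10b 18, that of Fzd1 16 and that of Dkk1 only 9. Over the 29 promoter sequences of the 26 members that have one, the count ran from 4 to 58. The median was 27, compared with 7 over all 32851 promoters of the same table. Of these 29, 22 held at least 3 measured cytosines, and 20 of the 22 had a mean level under 20% over the 6 libraries. The exceptions were Fzd4, with a Control mean of 31.1% ± 5.48 (SD, n = 3) on 5 cytosines, and the third annotated start of Wnt5b, with 25.1% ± 8.32 (SD, n = 3) on 6 cytosines. The first Wnt5b start, printed above, read 8.13% ± 1.02 (SD, n = 3) in Control on 54 cytosines, so starts of a single gene differed in level. The 300 bases of Dkk1 held no measured cytosine, and its values below come from DNA within 1 kb of the start.

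The promoters were also searched for 2 of the words that TCF and LEF factors are known to prefer. Other forms of the site were not searched. CTTTGAA was in 1 of the 29 and CTTTGTT in 3, searched on both strands, and the 2 words share no match. Over all promoters of this length, 5.14% held the first and 5.85% the second. Either word was in 3 member promoters, those of Dkk1 (both words), Fzd7 and Wnt3, or 10.3% of the 29, near the 10.6% of all promoters. The Axin2 promoter held neither.

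Libraries were of like depth, with a median coverage of 44 to 50 reads per cytosine and 2210988 cytosines listed in all 6. Over all of these the mean level was 43.1% to 43.4% in the Control libraries, 42.6% in CSDS replicate 1, and 39.5% and 39.7% in CSDS replicates 2 and 3. The 27 cytosines of mitochondrial DNA, which is taken to be largely unmethylated and so shows reads left unconverted by bisulfite, had a median share of C of 8.84% to 10.04% in Control and 8.50% in CSDS replicate 1, and 4.41% and 4.53% in CSDS replicates 2 and 3. The same 2 libraries thus stand apart from the other 4 in mean level, in mitochondrial share of C and in the cytosines they list. Results are given below with and without a correction for the mitochondrial share. As a check of the labelled cell type, windows at the ends of germ cell genes such as Ddx4 and Dazl had a median level of 18.98% (8 genes measured), those of maternally methylated imprints, which sperm lacks, 15.7% (5 genes), and those of all genes 14.3%. Over whole gene regions the imprinted Snrpn read 60.1% and Peg10 43.0%, and the 3 other imprinted genes 16.97% to 20.3%. The end of the macrophage gene Adgre1, the only immune gene measured there, read 95.0%, and 6 Sertoli cell genes had a median of 20.5% with 2 of the 6 over 80%, and 3 Leydig cell genes had 47.3%. The 5 imprint windows themselves ran only from 15.1% to 22.7%, low as in sperm. The germ cell and Sertoli medians both lie near that of all windows, so these 2 lists do not tell the cell types apart.

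Around a start or gene end, the 37 members measured there were weakly methylated. The level of a stretch of DNA is the mean share of reads showing C over its cytosines, in percent. In windows of 1 kb either side of the transcription start, or, for 14 members without a start in the reference, of the gene end with more measured cytosines, 37 of 37 members had a mean level under 20%. Over all 22274 genes with such a window the share under 20% was 66.7%, so a low level was common but not general. The lowest windows were those of Fzd2 at 6.85% (9 cytosines), Sfrp4 at 7.25% (16), Sfrp1 at 7.91% and Wnt5b at 7.92%, and the highest was that of Dkk1 at 19.02%. The mitochondrial share above is of the size of the lower of these levels. With the correction for it described at the end, the median over the 37 windows averaged 4.23% in the Control libraries and 3.89% in the CSDS libraries. Wnt8b had no measured cytosine in its window.

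Outside these windows the members fell into different kinds. In 32 of the 35 members with cytosines in both places, the rest of the gene region was more methylated than the window, with medians of 38.9% and 11.4%. The 3 others were Wnt1, Wnt10b and Fzd8, in which the rest stood at 12.9%, 12.9% and 11.3%, as low as the window. The rest lay under 20% in 9 members: 4 ligands (Wnt1, Wnt5a, Wnt6 and Wnt10b) and 5 Frizzled receptors (Fzd1, Fzd2, Fzd5, Fzd7 and Fzd8). It lay above 90% in 8 members: Fzd3 (96.4%), Fzd4 (92.6%, on 6 cytosines), Fzd6 (91.9%), Sfrp1 (92.4%), Sfrp2 (93.1%, 5 cytosines), Sfrp5 (90.9%, 3 cytosines), Lrp5 (96.2%) and Lrp6 (91.1%).

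The receptors show the contrast within a single family. Fzd1, Fzd2, Fzd5, Fzd7 and Fzd8 are short genes of 3.35 to 7.19 kb, as Frizzled genes with their coding sequence in a single exon tend to be. Their mean levels were low both in their windows and outside them. In stretches of 500 bp the highest level was 15.8% in Fzd1, 11.7% in Fzd2 and 19.1% in Fzd8, but 77.9% in Fzd5 and 38.7% in Fzd7. Fzd3 (70.02 kb) and Fzd6 (32.0 kb) are long, and cytosines outside their windows were almost fully methylated. Length and level did not go together throughout: the shortest receptors, Fzd9 (2.11 kb) and Fzd10 (2.99 kb), read 22.9% and 39.2% outside their windows, Fzd4 spans 5.75 kb and read 92.6% outside its window, while Wnt5b spans 112 kb and read 25.9%. Among ligands the rest of the gene was highest in Wnt2b (84.3%), Wnt4 (82.5%), Wnt7a (76.2%) and Wnt9a (73.3%), and the 13 other ligands lay between 12.9% and 45.6%.

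**Figure D1:**
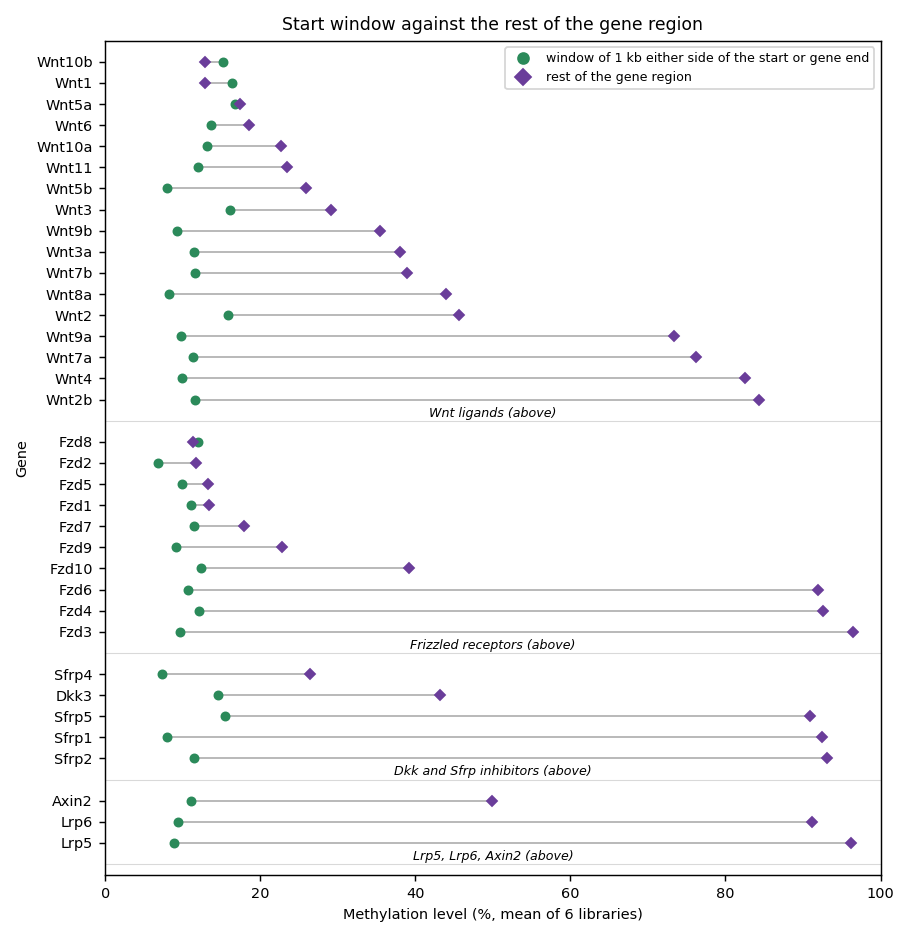
Methylation level (x axis, percent, mean of 6 libraries) in the window of 1 kb either side of the start or gene end (circles) and in the rest of the gene region (diamonds) for the 35 members with both, by role. All windows lie under 20%, while the rest of the gene ranges from 11.3% in Fzd8 to 96.4% in Fzd3.

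Over whole gene regions, Lrp5 had the highest mean level, at 43.8%, followed by Wnt7a at 40.7%, Dkk3 at 37.6%, Fzd6 at 33.8% and Wnt4 at 30.5%. The lowest were Fzd2 at 11.3%, Fzd5 at 11.6%, Fzd8 at 11.7%, Fzd1 at 11.7% and Fzd9 at 11.8%. The levels of these 5 receptors lie close together, and their SD between Control libraries ran from 0.440 for Fzd2 to 1.43 for Fzd5. Whether these genes differ from each other within libraries was not tested. Lrp5 and Wnt7a, with Control means of 44.6% ± 0.136 and 41.7% ± 0.467 (SD, n = 3), lie further apart than either SD.

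Compared with Control, the mean level was lower in CSDS in 38 of 38 gene regions, by 1.46 to 7.42 points. This direction is that of most of the genome: 89.3% of all gene regions were lower in CSDS. In 21 of the 38 every CSDS library lay below every Control library, which also held for 31.0% of all gene regions, and in none did every CSDS library lie above (0.602% of all). CSDS replicates 2 and 3 lay below every Control library in 38 of 38 members, with medians of -4.77 and -4.59 points from the Control mean, whereas CSDS replicate 1 did so in 21, with a median of -0.931 points. CSDS replicates 2 and 3 are also the libraries with the low mitochondrial share of C. To be called, a region needed both a 10-point difference and an adjusted p under 0.05 in a quasi-binomial F test (limma moderation, Benjamini-Hochberg over 28752 gene regions). No member was called, and 0.0% of all regions were. At an unadjusted p under 0.05, 25 of 38 members were lower and none higher, against 30.4% of all gene regions lower and 0.0661% higher. With limma on logit levels none was called, and 15 members had an unadjusted p under 0.05, as did 5594 of all 28752 gene regions.

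Members are read at more cytosines than the usual gene, with a median of 174.5 per region against 45 over all, and at lower levels. Among the 6865 gene regions with at least 100 cytosines and a mean level of 10% to 50%, 46.2% had every CSDS library below every Control library and 63.8% were lower at an unadjusted p under 0.05. The 29 members of that kind had 17 and 22. Their median difference was -3.51 points, and that of all such regions was -3.05 points.

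**Figure D2:**
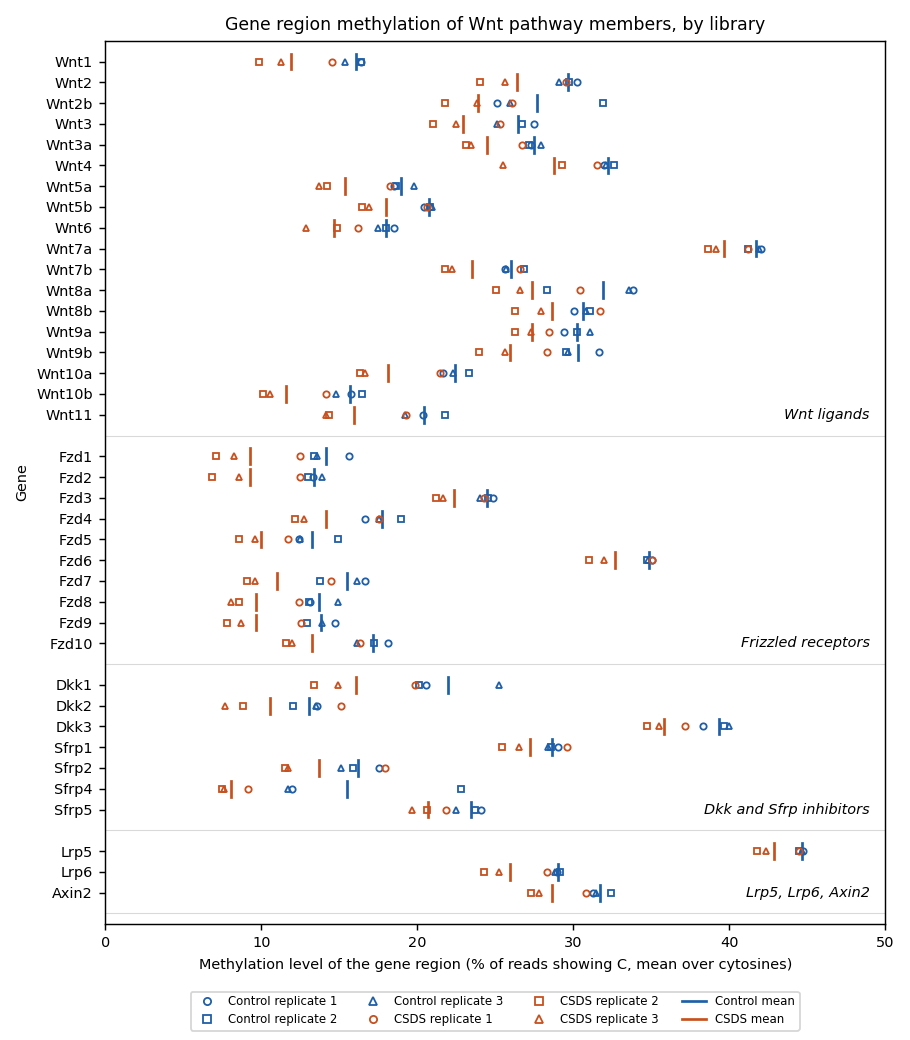
Gene region level (x axis, percent) in each library for the 38 measured members, ordered by role, with symbols for replicates and vertical strokes for group means. CSDS replicates 2 and 3 lie left of all Control libraries in 38 of 38 members, and CSDS replicate 1 lies among or close to the Control libraries.

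The 18 measured ligands had a median difference of -3.48 points, against -2.66 points over all gene regions. Over gene regions at levels of 10% to 20% and of 20% to 30%, where most ligands lay, the medians were -3.43 and -3.17 points. Of the ligands, 9 had every CSDS library below every Control library, and 12 had an unadjusted p under 0.05 in the same F test. These shares were 31.0% and 30.4% over all gene regions, and 46.2% and 63.8% over those of like density and level, as defined above. Wnt11 (chr7:98835084-98854747), a ligand best known for signalling without beta-catenin, read 20.3%, 21.8% and 19.2% in Control replicates 1 to 3 and 19.3%, 14.3% and 14.1% in CSDS replicates 1 to 3, on 286 cytosines. Its groups overlapped by CSDS replicate 1, which lay just above the lowest Control library. The difference was -4.53 points between means of 20.4% ± 1.29 and 15.9% ± 2.93 (SD, n = 3 each), with an adjusted p of 0.142 in the same F test.

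Wnt9b (chr11:103727362-103775272), which acts in kidney and palate development, read 31.7%, 29.5% and 29.7% in Control and 28.3%, 24.0% and 25.6% in CSDS. All CSDS libraries lay below all Control libraries. The difference was -4.34 points, with an SD of 1.18 in Control and 2.21 in CSDS. The annotated Wnt9b gene reaches past the start of its neighbour Wnt3, and 117 of its 295 cytosines are counted for both genes. Wnt8a, active in the early embryo, rests on 10 cytosines, the fewest of any member, and read 33.8%, 28.3% and 33.6% in Control and 30.5%, 25.1% and 26.6% in CSDS. Its Control replicate 2 lay among the CSDS values, and its difference of -4.54 points became -13.3 points when reads were summed over cytosines rather than averaged by cytosine.

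Wnt10b (chr15:98770712-98778206), a ligand that holds back fat cell formation, was the least methylated ligand. It read 15.8%, 16.4% and 14.8% in Control and 14.2%, 10.1% and 10.5% in CSDS, without overlap. Its neighbour on chromosome 15, Wnt1, a ligand of midbrain development, read 16.4%, 16.4% and 15.4% in Control and 14.6%, 9.85% and 11.3% in CSDS, likewise without overlap. At the other end, Wnt7a (chr6:91363981-91411353), a ligand of the female reproductive tract and limb, read 42.1%, 41.2% and 41.9% in Control and 41.2%, 38.6% and 39.2% in CSDS. Its CSDS replicate 1 lay within the Control range. The smallest ligand difference was in Wnt8b (chr19:44493472-44514273), a forebrain ligand, at -2.03 points: 30.1%, 31.1% and 30.8% in Control against 31.7%, 26.2% and 27.9% in CSDS. There CSDS replicate 1 was the highest of all 6 libraries.

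In the windows at starts or gene ends of ligand genes the differences were of the same size. The 17 ligand windows had a median difference of -3.71 points, against -3.25 points over all windows, and all 17 were lower. Over all members, 37 of 37 windows were lower (91.6% of all windows), and 15 had every CSDS library below every Control library (32.1%). None had every CSDS library above (0.525%). At an unadjusted p under 0.05, 18 were lower (30.9%) and none higher (0.0449%), and none was called (0.0%). The Wnt10b window, on 72 cytosines, read 16.9%, 19.9% and 16.1% in Control and 14.8%, 11.5% and 11.5% in CSDS, a difference of -5.01 points without overlap. The window of Wnt3, a ligand needed for gastrulation, read 20.9%, 18.2% and 16.6% in Control and 16.7%, 10.5% and 13.9% in CSDS, a difference of -4.87 points in which CSDS replicate 1 and Control replicate 3 overlapped. The adjusted p was 0.150 for Wnt10b and 0.152 for Wnt3 in the quasi-binomial F test (limma moderation). The Wnt8a window holds 4 cytosines, and its difference of -4.69 points rests on Control replicate 3: it read 20.03% there and 6.68% and 5.03% in the other Control libraries, and without that library the difference was 0.0316 points.

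The Frizzled receptors had the lowest levels and a median difference of -3.95 points over 10 gene regions, against -2.66 points over all gene regions and -3.43 points over those at levels of 10% to 20%, where 8 of the 10 lay. In 5 of the 10 the groups did not overlap, and 8 had an unadjusted p under 0.05. Over all gene regions these shares were 31.0% and 30.4%, and over those of like density and level, as defined above, 46.2% and 63.8%. Fzd1 (chr5:4753839-4758216) had the largest difference of the family, -4.89 points, with 15.6%, 13.4% and 13.6% in Control and 12.5%, 7.09% and 8.28% in CSDS. All CSDS libraries lay below all Control libraries, and CSDS replicate 1 stood closer to Control than to the other CSDS libraries. Fzd7 (chr1:59482147-59486955), a receptor of stem cell compartments, read 16.6%, 13.8% and 16.1% in Control and 14.4%, 9.06% and 9.62% in CSDS. Its groups overlapped by CSDS replicate 1 and Control replicate 2. Fzd9 (chr5:135248938-135251047) read 14.7%, 12.9% and 13.9% in Control and 12.5%, 7.83% and 8.67% in CSDS, without overlap.

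Fzd2 (chr11:102604431-102608058), the least methylated member, read 13.3%, 13.0% and 13.9% in Control and 12.5%, 6.85% and 8.57% in CSDS. All CSDS libraries were lower, CSDS replicate 1 by less than 1 point from the lowest Control library. The smallest receptor difference was in Fzd3 (chr14:65192441-65262463), a receptor of axon guidance, at -2.11 points: 24.9%, 24.5% and 24.0% in Control against 24.3%, 21.2% and 21.6% in CSDS. The receptor with the highest level, Fzd6 (chr15:39006149-39038192), known for hair and tissue polarity, read 35.0%, 34.8% and 34.8% in Control and 35.0%, 31.0% and 32.0% in CSDS. In both Fzd3 and Fzd6 CSDS replicate 1 lay inside or above the Control range.

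All 10 receptor windows were lower in CSDS, with a median of -4.13 points. The largest difference was that of Fzd2, -7.69 points, on 9 cytosines that read 17.6%, 3.62% and 10.8% in Control and 5.04%, 2.38% and 1.60% in CSDS. Control replicate 2 lay below CSDS replicate 1, and the Control SD of 7.01 was near the size of the difference. The Fzd1 window, on 180 cytosines, read 15.4%, 13.4% and 11.8% in Control and 11.5%, 6.71% and 7.27% in CSDS, a difference of -5.02 points without overlap and with an adjusted p of 0.150 in the same F test. In the 300 promoter bases printed above, on 14 cytosines, Fzd1 had a Control mean of 20.5% ± 3.499 and a CSDS mean of 18.3% ± 2.48 (SD over 3 libraries), and the groups overlapped.

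Among the inhibitors the 7 measured gene regions had a median difference of -2.73 points, and the median over all gene regions was -2.66 points. In 4 of the 7 every CSDS library lay below every Control library, which held for 31.0% of all gene regions. At an unadjusted p under 0.05 in the same F test 3 were lower, against 30.4% of all gene regions. Sfrp4 (chr13:19623175-19632825), which binds Wnt ligands outside the cell, had the largest difference of all members, -7.42 points on 21 cytosines, and it rests on a single library. Control replicate 2 read 22.8%, against 11.997% and 11.7% in Control replicates 1 and 3, and CSDS read 9.12%, 7.50% and 7.63%. The groups did not overlap, and without Control replicate 2 the difference was -3.77 points. The Sfrp4 window, on 16 cytosines, has the same pattern, with 6.54%, 20.9% and 5.96% in Control and 5.06%, 2.40% and 2.60% in CSDS, and its difference of -7.79 points became -2.90 points without that library.

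Dkk1 (chr19:30545876-30549496), an Lrp blocker and a target of the pathway, had a difference of -5.92 points on 32 cytosines, all of them in its window. It read 20.6%, 20.1% and 25.2% in Control and 19.9%, 13.4% and 14.9% in CSDS. CSDS replicate 1 lay just below the lowest Control library, and the other CSDS libraries lay further down. The adjusted p was 0.146 for the region and 0.153 for the window in the quasi-binomial F test (limma moderation). Dkk3 (chr7:112116019-112159482), a divergent member of the Dkk family, read 38.3%, 39.7% and 39.97% in Control and 37.2%, 34.7% and 35.5% in CSDS, without overlap. Its difference of -3.52 points became -11.0 points when reads were summed.

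The other inhibitors moved less. Dkk2 (chr3:132085266-132180304), with the lowest inhibitor level together with Sfrp4, read 13.5%, 12.03% and 13.5% in Control and 15.1%, 8.83% and 7.67% in CSDS, so that a CSDS library was both the highest and the lowest of the 6. Sfrp1, on 152 cytosines, had the smallest difference of any member, -1.46 points, with 29.0%, 28.6% and 28.4% in Control and 29.6%, 25.5% and 26.5% in CSDS. Here too CSDS replicate 1 was the highest library. Sfrp2 and Sfrp5 differed by -2.45 and -2.73 points, the second without overlap.

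The co-receptors and Axin2 were the most methylated role group. Lrp5 (chr19:3584825-3686585) read 44.7%, 44.5% and 44.7% in Control and 44.5%, 41.8% and 42.4% in CSDS, and Lrp6 (chr6:134446476-134566913) read 29.0%, 29.2% and 28.8% in Control and 28.3%, 24.3% and 25.3% in CSDS. Axin2 (chr11:108917828-108950783) read 31.3%, 32.4% and 31.5% in Control and 30.8%, 27.3% and 27.8% in CSDS. In all 3 genes every CSDS library lay below every Control library, in Lrp5 by a narrow margin for CSDS replicate 1 (44.48%, against 44.49% in the lowest Control library). That held for 31.0% of all gene regions and for 46.2% of those of like density and level, as defined above. The differences were -1.77 points for Lrp5, -3.04 for Lrp6 and -3.08 for Axin2.

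Around the start, Axin2 read 12.4%, 14.3% and 12.8% in Control and 11.5%, 7.25% and 8.28% in CSDS on 211 cytosines, a difference of -4.16 points without overlap. The Lrp6 window, placed at the upper gene end, read 11.1%, 11.6% and 10.6% in Control and 10.9%, 5.94% and 6.32% in CSDS. Its difference was -3.37 points, with CSDS replicate 1 inside the Control range. The adjusted p was 0.150 for Axin2 and 0.171 for Lrp6 in the same F test.

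Differences between the groups were larger in weakly methylated DNA. In the rest of the gene region, outside the windows, the 9 members under 20% were all lower in CSDS, by 2.99 to 4.61 points, and 5 of them had no overlap. No such share was computed outside the windows over all genes. Over all whole gene regions, 31.0% had every CSDS library below every Control library. In the 8 members above 90%, the difference ran from -2.05 points in Fzd6 to 3.22 points in Sfrp5, 4 were lower, and the groups overlapped in all 8. All gene regions had the same gradient, with a median difference of -3.43 points at levels of 10% to 20% and -0.613 points above 90%.

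**Figure D3:**
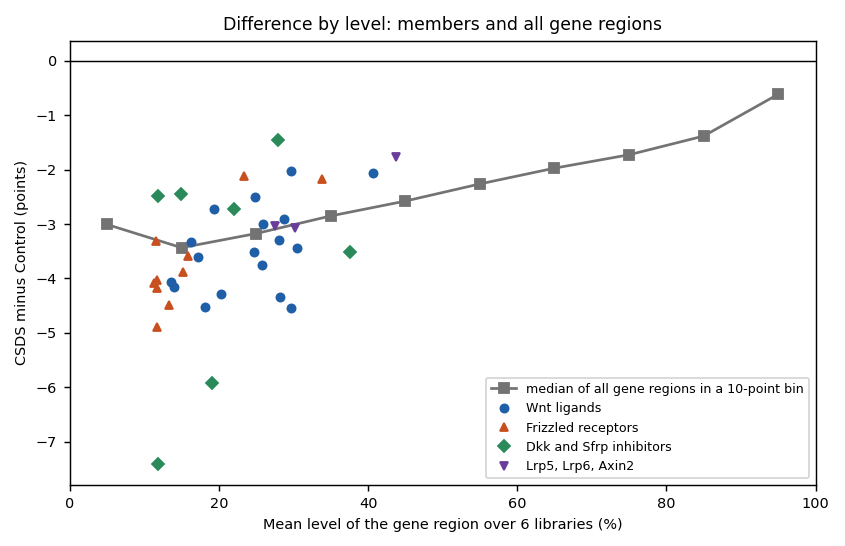
CSDS mean minus Control mean (y axis, percentage points) against the mean level of the gene region over 6 libraries (x axis, percent) for the 38 members by role, with the median of all gene regions in each 10-point bin (grey squares). Members lie on both sides of the grey line, and Sfrp4 at -7.42 and Dkk1 at -5.92 points lie farthest below it.

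In tiles of 500 bp, 316 held member DNA, 5 of them shared by Wnt3 and Wnt9b. CSDS was lower in 257 (73.7% of all 163068 tiles were lower), without overlap in 58, or 18.4% of member tiles, against 15.7% of all tiles. None was called (0.0%), and 85 had an unadjusted p under 0.05. Of all tiles, 13.9% had such a p and were lower and 0.474% were higher. Tiles split by level: 146 of 151 under 20% were lower, with a median of -3.53 points, whereas 58 of 107 over 80% were lower, with a median of -0.204 points. All 56 member tiles with at least 40 cytosines lay under 20%, and all 56 were lower in CSDS. Of all tiles 59.9% lay over 80%, and the median tile held 6 cytosines. Shares lower in CSDS were not computed over all tiles of like level or density.

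The member tile with the smallest p covers the transcription start of Wnt9b (chr11:103749501-103750000, 80 cytosines). It read 11.1%, 11.6% and 12.5% in Control and 8.37%, 6.32% and 6.25% in CSDS, and includes most of the printed Wnt9b promoter. CSDS replicate 1 lay between the other CSDS libraries and Control. The difference was -4.75 points, with SDs of 0.705 and 1.21, and an adjusted p of 0.203 over all tiles in the quasi-binomial F test (limma moderation). Further into the gene, 2 Wnt9b tiles at 39.8% and 47.2% in Control differed by -6.28 and -9.44 points, while its 5 tiles above 80% differed by -0.478 to 3.16 points and overlapped.

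Several of the 10 member tiles of smallest p lie far from the annotated start. A Wnt5b tile 64597 bp into the gene (chr6:119479501-119480000, 114 cytosines) read 8.32%, 8.13% and 9.52% in Control and 5.83%, 3.88% and 5.29% in CSDS. A Wnt3a tile 26501 bp in (chr11:59264001-59264500) read 14.7%, 13.7% and 14.9% in Control and 11.7%, 9.82% and 10.1% in CSDS. A Wnt3 tile 36075 bp in (chr11:103810001-103810500) read 10.9%, 13.3% and 8.73% in Control and 7.77%, 4.82% and 4.98% in CSDS. The groups do not overlap in these tiles by the way the 10 were chosen.

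The receptor tiles were of a similar size. Fzd5 1500 bp from the start (chr1:64736001-64736500) differed by -3.94 points, Fzd1 at the start (chr5:4758001-4758500) by -5.61 points, and Fzd8 by -4.07 points. Wnt7b at the upper gene end (chr15:85582501-85583000) differed by -7.12 points and Wnt9a at the start (chr11:59306501-59307000) by -3.07 points. The largest of the 10, in Wnt11 just after the start (chr7:98835501-98836000), is -13.2 points on 7 cytosines. It read 15.4%, 26.3% and 11.8% in Control and 4.40%, 6.70% and 2.74% in CSDS. With a coverage of at least 20 its difference was -3.96 points, with reads summed -5.84 points, and without Control replicate 2 it was -8.97 points. The adjusted p of these tiles by the same F test lay between 0.203 and 0.208.

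**Figure D4:**
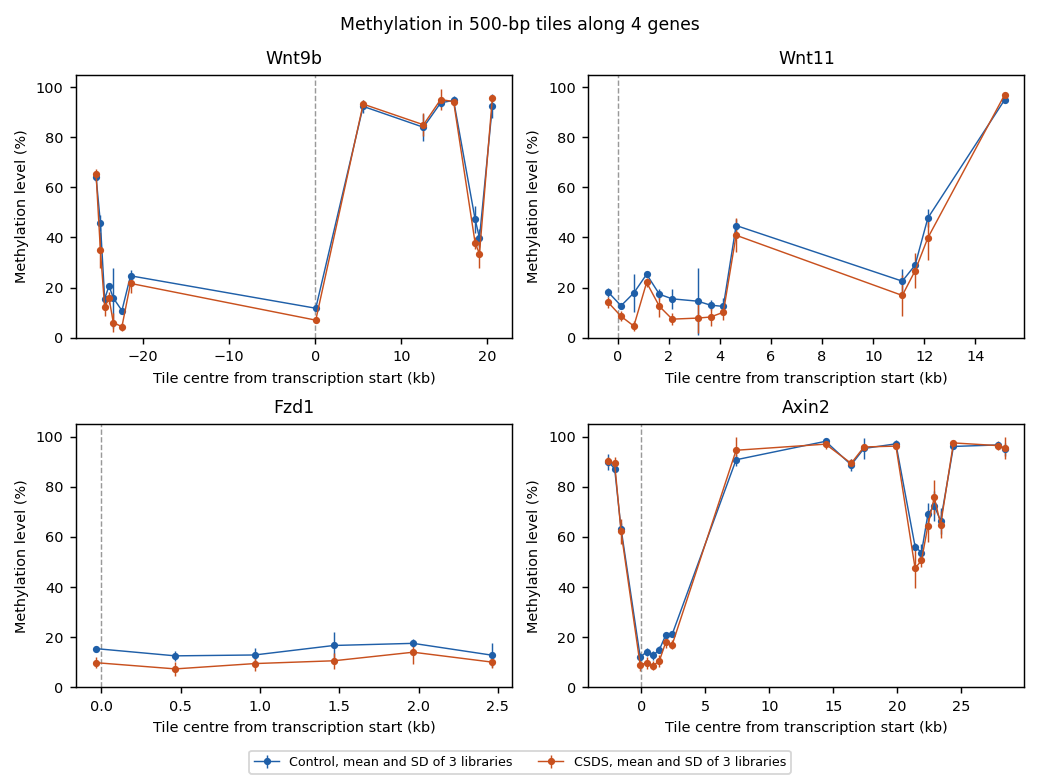
Methylation level (y axis, percent) of 500-bp tiles by distance from the transcription start (x axis, kb, positive into the gene, dashed line at 0) in Wnt9b, Wnt11, Fzd1 and Axin2, as mean and SD of 3 Control and 3 CSDS libraries. CSDS lies below Control in the low tiles, as at the Wnt9b start (6.98% against 11.7%), and the curves meet in tiles above 80%.

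In 5 member tiles every CSDS library lay above every Control library, a pattern that 1.8% of all tiles had. They lie in Wnt3, Wnt7b, Wnt8b, Wnt11 and next to Fzd6, hold 3 to 5 cytosines each, and read above 88% in Control. The largest, in Wnt3 (chr11:103800001-103800500), read 91.2%, 83.9% and 89.5% in Control and 95.4%, 91.6% and 98.1% in CSDS, a difference of 6.80 points.

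Other genes of the pathway were also lower in CSDS. Of 51 listed, which include beta-catenin, the Tcf and Lef factors, the R-spondins and their Lgr receptors and the planar polarity genes, 50 were measured. All 50 were lower in CSDS (89.3% of all gene regions), 22 without overlap (31.0% of all) and 28 with an unadjusted p under 0.05 (30.4% of all), and none was called. Their median difference was -2.60 points, close to the -2.66 points of all gene regions. The 4 with the smallest p were Celsr1, a planar polarity cadherin (59.8% ± 0.320 in Control, 57.7% ± 0.881 in CSDS), Rspo3, which amplifies Wnt signals (30.9% ± 0.735 and 27.0% ± 0.995), Kremen2, a Dkk receptor (29.4% ± 0.436 and 26.0% ± 1.30), and Ror1, a Wnt5a receptor (45.2% ± 0.0197 and 42.0% ± 1.57; SD, n = 3 each). Each had an adjusted p of 0.142 in the same F test, and the groups did not overlap in any of the 4.

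Levels were also computed with the mitochondrial share of each library taken as unconverted, so that the unmethylated share is divided by 1 minus that share. After this correction CSDS was lower in 27 of 38 member regions, where 62.9% of all gene regions were lower, and the median difference fell in size to -0.599 points, against -0.420 points over all. The medians were -0.694 points for ligands (14 of 18 lower), -0.774 for Frizzled receptors (8 of 10), 0.185 for inhibitors (3 of 7) and -0.357 for the co-receptors and Axin2 (2 of 3). Dkk1 and Sfrp4 had the largest corrected differences, -3.12 and -4.47 points, both with overlapping groups and each resting on 1 library. Without Control replicate 3 that of Dkk1 was -1.70 points, and without Control replicate 2 that of Sfrp4 was -0.244 points. No member was called.

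A single region kept every CSDS library below every Control library, that of Fzd8, at -0.788 points (9.12% of all gene regions did so). Among the windows, 23 of 37 were lower, against 58.6% of all windows. Those of Fzd8 (-1.63 points), Fzd9 (-1.14) and Wnt9b (-1.41) had every CSDS library below every Control library, a share of 8.11%, where 8.03% of all windows had it. The Sfrp1 window went the other way, with every CSDS library above every Control library by a mean of 1.95 points (3.9% of all windows did so) and an adjusted p of 0.468 in the same F test. Its corrected levels were 0.158%, -0.504% and -1.40% in Control and 1.84%, 0.874% and 1.39% in CSDS, values around 0 at which the correction exceeds some of the measured shares.

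**Figure D5:**
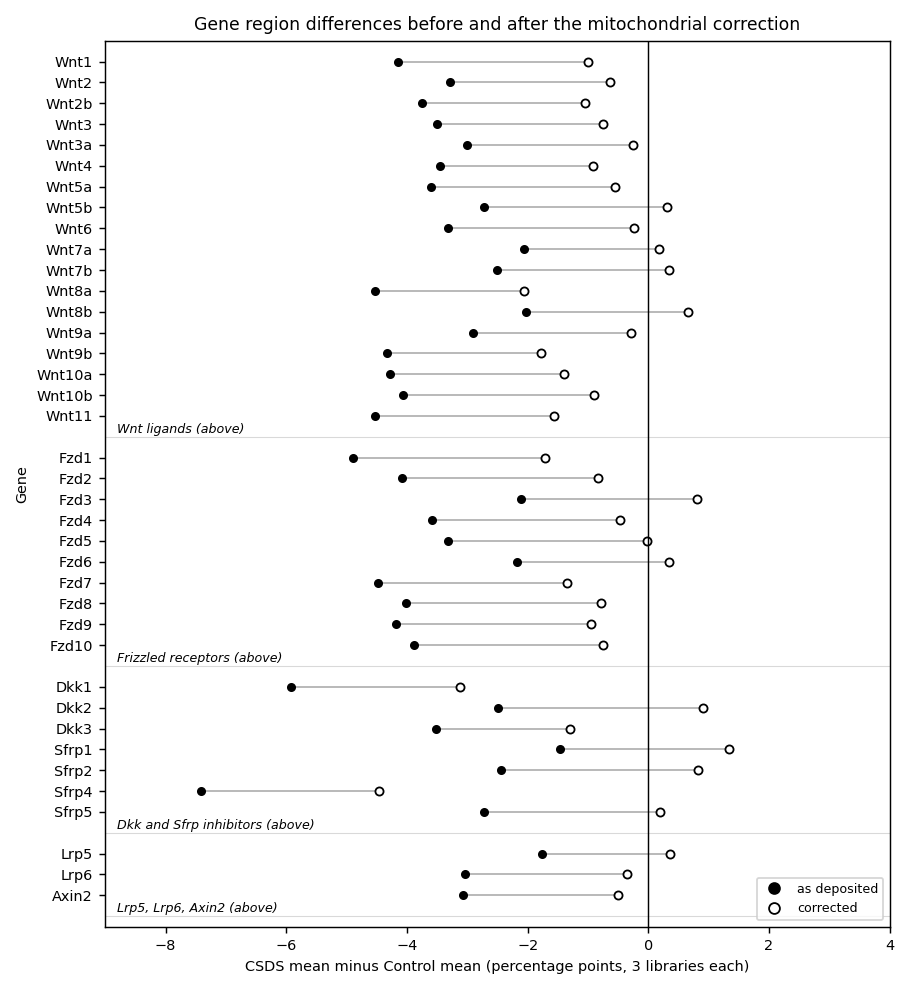
CSDS mean minus Control mean (x axis, percentage points) of the 38 member gene regions, as deposited (filled) and after the correction for the mitochondrial share (open). The filled points are all below 0, and 27 of the 38 open points are below 0, within 2.06 points of it except those of Dkk1 and Sfrp4.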

How the data were processed

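Per the labels' protocols, RRBS libraries of male germ cell DNA were made with a Zymo-Seq kit. The submitters' processing notes name Trim Galore 0.5.0, Bismark 0.20.0 and GRCm38. For each cytosine the deposited tables give, per the file headers, a read count (its coverage) and the percent of those reads with C or with T. Percent times coverage gave whole reads at every position. No listed coverage was under 10. Duplicate handling, quality filters and the conversion rate are not given in the sources used here. Coverage counts reads, not independent molecules, so counting precision understates the error.

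Cytosines listed in all 6 libraries were averaged with equal weight over gene regions (the gene with 1 kb on either side), windows of 1 kb either side of a start or gene end, and 500-bp tiles, each with at least 3 cytosines. Gene bounds are of GRCm38.p6 in the RefSeq gene table, without strand or exons, so exons, introns and UTRs were not separated. Starts and sequences come from the RefSeq promoter table of that assembly for 26 members. The 14 others are Fzd6, Dkk3, Wnt7b, Wnt5a, Fzd3, Lrp6, Fzd8, Sfrp4, Wnt10a, Sfrp1, Lrp5, Fzd2, Wnt8a and Dkk4. All 853 measured cytosines in member promoters fell on C or G of these sequences. Where a gene has several starts, the one with most cytosines was used.

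All features were fitted by a binomial logistic model on group, with the quasi-binomial dispersion moderated by limma 3.58.1 (R 4.3.3) and held at 1 or above, an F test and Benjamini-Hochberg adjustment over all features of a kind. Called means an adjusted p under 0.05 and at least 10 points. The members, the gene lists and the tests were chosen with earlier results of these data known. Named in full, per role group, are the 3 largest and the smallest region differences, the highest and lowest levels, the 2 largest window differences, and over all members the 10 non-overlapping tiles of smallest p. Wnt1, the Wnt8a window, Sfrp2, Sfrp5 and the tiles higher in CSDS were named after their values were seen. Same-numbered Control and CSDS libraries did not deviate together over gene regions (correlations of -0.0844, -0.0963 and -0.00123), so replicate numbers were not used as pairs. Alternatives were a coverage minimum of 20, a coverage cap, summed reads, a minimum of 10 cytosines, no flank, limma on logit levels, a replicate block, the mitochondrial correction, centring on regions of like level and leaving out each library.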

Additional observations from a re-analysis of the deposited data

How the results depend on the processing

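The groups of 3 libraries limit every comparison here. The mitochondrial share of C differed between libraries by a few points, as the member levels did, and its part in their differences was not tested. As deposited, no gene region, window or tile was called, with 8752, 6895 and 23376 at an unadjusted p under 0.05, and limma on logit levels called none either. Under the mitochondrial correction the median differences were -0.694 points for ligands, -0.774 for Frizzled receptors, 0.185 for inhibitors and -0.357 for the co-receptors and Axin2. Centred on gene regions of like level, the medians were -0.124, -0.278, 0.553 and 0.237 points, with 20 of 38 members lower, against 44.7% of all gene regions. Then 0 members had every CSDS library below every Control library (5.05% of all), and 6 had every CSDS library above (8.65% of all). The causes of these shifts were not tested. Without CSDS replicate 1, 271 of 28752 gene regions, 349 of 22274 windows and 2070 of 163068 tiles were called. Among members these calls were 0 of 38 regions, 0 of 37 windows and 6 of 316 tiles (in Wnt2, Wnt9b, Wnt10b, Dkk1 and, with 2 tiles, Wnt11). Leaving out any other library called 0. Over the libraries left out in turn, the median differences ran from -4.83 to -2.86 points for ligands, from -5.40 to -2.94 for Frizzled receptors, from -4.56 to -2.19 for inhibitors and from -4.18 to -2.20 for the co-receptors and Axin2, with 38 of 38 regions lower each time.

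With the mitochondrial correction and a library left out together, chosen after seeing the data, these medians ran from -1.31 to -0.319, from -1.02 to -0.392, from -0.698 to 0.718 and from -0.781 to 0.0451 points. Of the 38 members, 23 to 32 were lower, against 55.3% to 71.3% of all gene regions. There 1 gene region was called without Control replicate 3 and 0 otherwise. With the replicate block 0 gene regions were called, 7954 had an unadjusted p under 0.05, and no call changed. The coverage minimum of 20, the cap, summed reads, the minimum of 10 cytosines and the absent flank left every count of calls at 0. The inhibitor median was -4.44 points with summed reads, -3.69 with a coverage of 20 and -3.39 without the flank, so that the role with the smallest median as deposited had the largest in the first 2 of these. The co-receptor and Axin2 median was -1.98 points without the flank, and the ligand median -4.35 with summed reads.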
